A study of Homo sapiens with 4 samples.

Results

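Transfection of an siRNA against ODC1 was compared with a negative control siRNA in Huh1, an established human hepatocellular carcinoma cell line, by sequencing total RNA from 1 library a side. These are 2 of the 4 libraries of the series; the other two hold the same pair of treatments in Huh7, a second hepatocellular carcinoma line. The libraries list 18398 transcripts, and the 10912 with at least 1 RPKM (reads per transcript length and library depth, so a level per length) in either Huh1 library were described. Both Huh1 groups were transfected, and they differ in the target of the siRNA. The labels give no dose, no time after transfection and no number of cultures, and the sequences of the siRNAs were not among the sources used. With 1 library in each group there is no replicate check, so no difference below has a p-value. Changes are differences of log2(RPKM + 1), ODC1 siRNA minus control, and the interval beside an RPKM ratio is a 95% interval from the reads behind the transcript (exact, by Clopper and Pearson), for counting error only. "Rose" and "fell" stand for a change of at least 1.5-fold on that scale.

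ODC1 encodes ornithine decarboxylase, which makes putrescine from ornithine and is the rate-limiting step of polyamine synthesis. AMD1, S-adenosylmethionine decarboxylase, supplies the aminopropyl groups with which SRM and SMS turn putrescine into spermidine and then spermine. Polyamines bind RNA and DNA and sustain growth, spermidine is also the donor for the hypusine residue of the translation factor eIF5A, and cells hold polyamine levels through feedback on synthesis, breakdown and transport.

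ODC1 itself read 103 RPKM in the control library and 25.01 in the ODC1 siRNA library. The transcript thus kept 24.2% of its control level (counting interval 22.1 to 26.5%, from 2854 and 579 reads), a change of -2.01 and the largest of any transcript described. The library labelled as ODC1 siRNA was the low one, as its label says. In bulk RNA, fewer cells with a transcript and less of it per cell cannot be told apart, so this value does not say whether every cell kept a share or some cells kept all.

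Markers of the labelled cell type were present. All 14 hepatocyte markers measured were above 1 RPKM, with albumin (ALB) at 3447 RPKM in the control library and 2806 in the other, and the summed hepatocyte markers read 6889 and 6281 RPKM. Glypican 3 (GPC3) and alpha-fetoprotein (AFP), markers of hepatocellular carcinoma, were at 131 and 118 RPKM and at 24.8 and 23.8 RPKM, and of the 6 markers of that list 4 passed the filter, with DLK1 at 0 in both libraries. Of 7 bile duct cell markers 5 passed, summing to 2221 and 1888 RPKM, nearly all of it osteopontin (SPP1, 2107 and 1769 RPKM); KRT7 was at 84.4 and 84.7 RPKM. Of 9 fibroblast and stellate cell markers 1 passed the filter, LUM at 11.95 and 15.5 RPKM, and COL1A1 was at 0.115 and 0.0763 RPKM. None of 6 endothelial markers passed, VWF and CDH5 being at 0 in both libraries, and of 8 blood cell markers CD68 alone passed, while PTPRC was at 0 in both. Depth was 13384836 and 11227128 reads in the control and ODC1 siRNA libraries, as recovered from the steps of low values.

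Across all 10912 transcripts the median change was 0.02 and 81.8% lay within 0.25 of no change. The 1.5-fold rule was passed upward by 110 transcripts (1.01% of those described) and downward by 40 (0.367%). At these shares, no member past the rule, or 1, is not unusual in short lists such as most of those below. At 2-fold, 6 rose (0.055%) and 3 fell (0.0275%). TPM4, CYP1B1, ZNF616, NTN4 and, at the edge of detection, a histone, HIST1H2BN, were among those that rose, and ODC1, OSGIN2 and CDKN1A fell. The spread of changes was wider at low levels, with an SD of 0.24 over 2726 transcripts under 5 RPKM and of 0.16 over 672 transcripts at 100 RPKM or more. Of the transcripts that rose, 33 stayed under 5 RPKM in both libraries, as did 15 of those that fell. At the threshold of detection SOSTDC1 (0.879 and 1.00 RPKM) was taken in and KLRC3 (0.292 and 0.999 RPKM) was not. At the threshold of change, C3orf24 (0.587) and HSD17B7 (-0.588) were counted, and BBS10 (0.584) and C2orf48 (-0.583) were not.

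**Figure D1:**
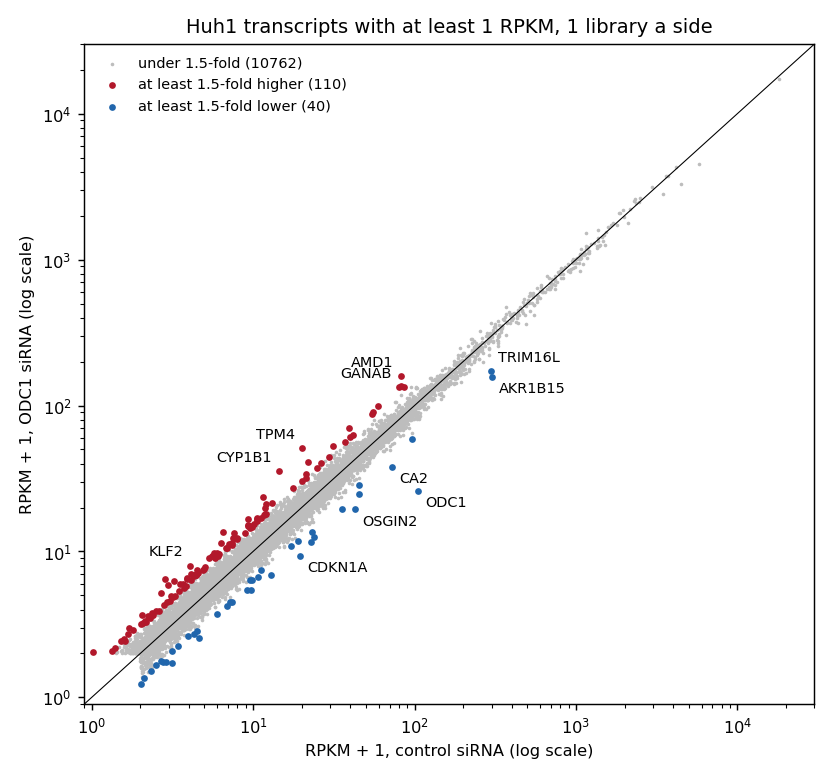
RPKM + 1 of the 10912 transcripts in the control siRNA library (x, log scale) and in the ODC1 siRNA library (y, log scale), 1 point a transcript, with the line of equal values. The 110 transcripts at least 1.5-fold higher are red and the 40 at least 1.5-fold lower are blue; ODC1 lies farthest below the line.

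Within polyamine synthesis, ODC1 fell and AMD1 rose, and the other 4 enzymes and regulators above 1 RPKM stayed inside 1.5-fold. AMD1, the second decarboxylase of the pathway, read 81.5 RPKM in the control library and 158 in the ODC1 siRNA library, a change of 0.95 (ratio 1.86 to 2.02). It was the highest in level of the 15 largest rises. Spermine synthase (SMS) was at 54.6 and 62.4 RPKM, a change of 0.19. Spermidine synthase (SRM) was at 120.3 and 123.1 RPKM, with an interval of the ratio (0.959 to 1.09) that includes no change. The antizyme inhibitor AZIN1, which frees ornithine decarboxylase from antizyme, was at 61.1 and 62.9 RPKM, and agmatinase (AGMAT), which makes putrescine from agmatine, at 40.8 and 42.9 RPKM. A seventh gene, ADC, stayed under the filter at 0.0364 and 0 RPKM. The 6 that passed had a median change of 0.06, beside 0.02 for all transcripts.

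None of the 11 measured genes of polyamine breakdown and transport passed the 1.5-fold rule, and their median change was -0.03. Of all transcripts 1.01% rose and 0.367% fell, so none is the usual count for so few genes. The largest differences ran in opposite directions. SAT1, the inducible acetyltransferase that starts the breakdown of spermidine and spermine, was at 21.4 RPKM in the control library and 14.6 in the ODC1 siRNA library, a change of -0.52 with a ratio of 0.563 to 0.825. Caveolin 1 (CAV1), listed with the transport genes, was at 12.9 and 19.3 RPKM, a change of 0.54 with a ratio of 1.32 to 1.69. Spermine oxidase (SMOX) was at 13.03 and 11.9 RPKM and polyamine oxidase (PAOX) at 4.55 and 4.01 RPKM, with intervals that include no change. The lysosomal polyamine exporter ATP13A2 was at 6.32 and 7.58 RPKM (0.23), and its relative ATP13A3 at 83.7 and 82.0 RPKM (-0.03). SLC3A2, at 114 and 118 RPKM, SAT2, at 50.6 and 49.1 RPKM, C6orf192 (the vesicular polyamine transporter, now named SLC18B1), at 28.2 and 26.9 RPKM, SLC12A8, at 5.19 and 5.42 RPKM, and SATL1, at 1.81 and 2.24 RPKM, all had intervals that include no change.

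Among the genes of eIF5A and its hypusine modification, the second isoform alone fell. EIF5A2 was at 8.90 RPKM in the control library and 5.36 in the ODC1 siRNA library, a change of -0.64 with a ratio of 0.528 to 0.689. The main isoform EIF5A stood far above it, at 496 and 504 RPKM, a change of 0.02. Deoxyhypusine synthase (DHPS), which uses spermidine, was at 19.1 and 17.2 RPKM, and deoxyhypusine hydroxylase (DOHH) at 8.06 and 7.41 RPKM; both intervals include no change. EIF5AL1, a near copy of EIF5A whose reads the counting could divide with it, was at 1.49 and 1.85 RPKM.

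**Figure D2:**
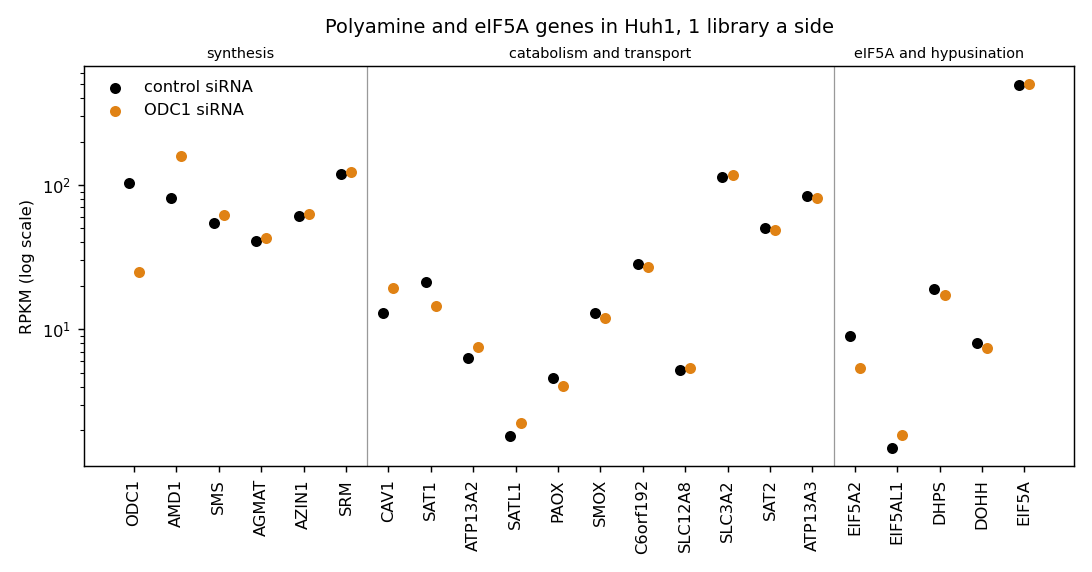
RPKM (log scale) of every measured polyamine synthesis, polyamine breakdown and transport, and eIF5A gene that passed the filter, in the control siRNA library (black) and the ODC1 siRNA library (orange), 1 library a side with no error bar. ODC1 drops from 103 to 25.01 RPKM, AMD1 climbs from 81.5 to 158, and most other pairs lie side by side.

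Neighbouring amino acid pathways held no gene past the rule, beside 1.01% of all transcripts that rose and 0.367% that fell. CPS1 came nearest to the rule. Carbamoyl phosphate synthetase (CPS1), the entry enzyme of the urea cycle, was at 95.03 RPKM in the control library and 63.5 in the ODC1 siRNA library, a change of -0.57 just short of the rule. Glutamate dehydrogenase (GLUD1) was at 83.9 and 61.7 RPKM (-0.44). Methionine synthase reductase (MTRR) was at 27.3 and 21.8 RPKM (-0.31), and cystathionine gamma-lyase (CTH) at 7.95 and 9.99 RPKM (0.30). No gene of the urea cycle, ornithine and proline list (15 described), of the glutamate and glutamine list (14) or of the methionine cycle and methylthioadenosine salvage list (16) passed 1.5-fold, and their medians were 0.07, -0.05 and 0.04.

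After ODC1, the largest falls with at least 5 RPKM were of varied function. OSGIN2, a homologue of a growth inhibitor induced by oxidative stress, was at 41.6 RPKM in the control library and 18.4 in the ODC1 siRNA library, a change of -1.14 (ratio 0.409 to 0.478). CDKN1A, which encodes the cyclin-dependent kinase inhibitor p21, was at 18.6 and 8.33 RPKM, a change of -1.07 (ratio 0.380 to 0.528). Both intervals lie wholly below 1, so each fall is larger than counting error. DYNLT3, a light chain of the dynein motor, went from 21.7 to 10.6 RPKM (-0.97). Carbonic anhydrase 2 (CA2), which hydrates carbon dioxide, went from 71.9 to 36.8 RPKM (-0.95). Riboflavin kinase (RFK), which makes flavin mononucleotide, went from 23.0 to 11.5 RPKM (-0.93). Their RPKM ratios were 0.487, 0.512 and 0.502, and each interval excludes no change.

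The other named falls included 3 oxidoreductases and 3 secreted proteins. Retinol dehydrogenase 11 (RDH11) went from 34.8 to 18.5 RPKM (-0.87), and the membrane protein SERINC3 from 44.5 to 23.9 RPKM (-0.87). The aldo-keto reductase AKR1B15 went from 299 to 157 RPKM (-0.93), but it is a near copy of AKR1B10, at 5758 and 4489 RPKM, and its reads may belong in part to it. The carbonyl reductase CBR3 went from 8.13 to 4.41 RPKM (-0.76), on 121 and 55 reads. TRIM16 (96.1 to 57.6 RPKM, -0.73) and its near copy TRIM16L (295 to 172 RPKM, -0.78) both fell, may share reads and have no interval. Of the secreted proteins, the chemokine CCL20 went from 22.1 to 12.7 RPKM (-0.75), the serum amyloid SAA4 from 8.65 to 4.42 RPKM (-0.83) and the calcium-binding S100A9 from 11.9 to 5.87 RPKM (-0.91). The last pair rests on few reads (77 and 33 for SAA4, 92 and 38 for S100A9), with ratios of 0.329 to 0.778 and 0.328 to 0.726.

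Several of the falls share a word of 7 bases in their 3′ UTR, ATATCAT, which an earlier analysis of these same libraries had listed, so the sharing is a description. Of the 15 named falls 13 had a 3′ UTR that could be searched, in the GENCODE 29 transcripts on GRCh38. Of these 5 (38.5%) hold the word, beside 9.85% of all transcripts searched: OSGIN2, DYNLT3, CA2, RFK and RDH11. RFK holds it 2 times, and EIF5A2, outside the 15 largest falls, 3 times. The first occurrence, in capitals within 21 bases of the sense strand, is shown for transcripts that fell, to let the word be seen in its setting. It lies at chrX:37840416-37840422 on the minus strand for DYNLT3, at chr9:76387251-76387257 (minus) for RFK, at chr14:67678088-67678094 (minus) for RDH11, at chr7:45893323-45893329 (plus) for IGFBP1 and at chr3:170891604-170891610 (minus) for EIF5A2.
DYNLT3: gcaagcaATATCATagtaatt
RFK: tgttatcATATCATgcttcaa
RDH11: actagagATATCATaatagga
IGFBP1: aatttgtATATCATgaaacac
EIF5A2: ggaaagtATATCATatatgat
The ODC1 mRNA (2653 bases) holds the word once, at base 1377, before its 3′ UTR.

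The 15 largest rises were led by a cytoskeletal gene and an oxidase. TPM4, a tropomyosin that winds along actin filaments, was at 19.1 RPKM in the control library and 50.4 in the ODC1 siRNA library, a change of 1.35 (ratio 2.41 to 2.89). CYP1B1, a cytochrome P450 of the aryl hydrocarbon receptor pathway, was at 13.5 and 34.8 RPKM, a change of 1.30 (ratio 2.38 to 2.78). Both rested on at least 683 reads in the lower library, so counting error was small beside the change. The zinc-finger gene ZNF616 went from 1.84 to 5.44 RPKM (1.18), and netrin 4 (NTN4), a basement membrane protein, from 5.52 to 12.7 RPKM (1.07). KLF2, a Krüppel-like transcription factor, went from 3.08 to 7.01 RPKM (0.97), on 83 and 159 reads.

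The other rises described were of mixed function and each stayed under 2-fold on the log2(RPKM + 1) scale. G3BP2, a stress granule protein, went from 38.2 to 68.8 RPKM (0.83). TMEM93, now named EMC6, a subunit of the endoplasmic reticulum membrane complex, went from 21.03 to 39.7 RPKM (0.89). TSC22D1, a leucine zipper protein, went from 11.1 to 20.1 RPKM (0.80), and OGFR, the opioid growth factor receptor, from 8.27 to 15.8 RPKM (0.86). The dynactin subunit ACTR1B went from 6.62 to 12.3 RPKM (0.80). Read support was thinner for ZNHIT2 (3.14 to 6.05 RPKM, 0.77, on 55 and 89 reads) and for the cancer-testis antigen PAGE1 (2.25 to 5.23 RPKM, 0.94, on 20 and 39 reads). For PAGE1 the interval of the ratio ran from 1.32 to 4.21. MT2A, a metallothionein, and AMD1 are also among the 15.

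**Figure D3:**
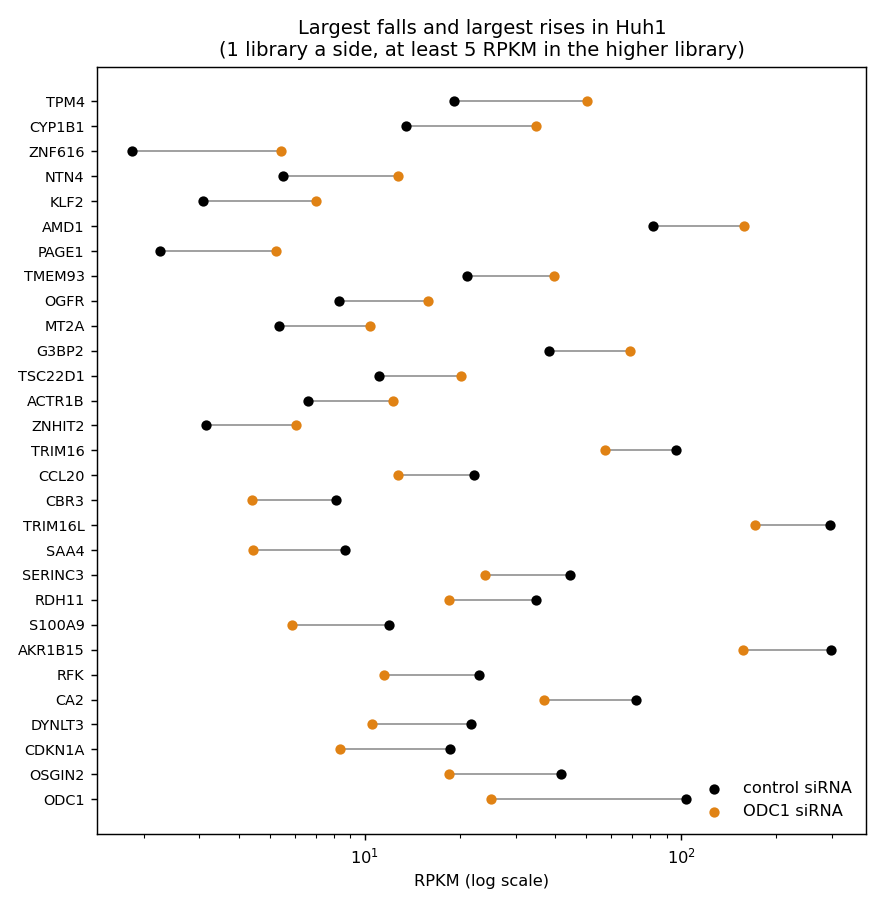
RPKM (log scale) of the 15 largest falls and 14 of the 15 largest rises, counting transcripts that reach 5 RPKM in one of the libraries, in the control siRNA library (black) and the ODC1 siRNA library (orange), joined by a line. The orange point lies to the right for the rises, from TPM4 to ZNHIT2, and to the left for the falls, from TRIM16 to ODC1.

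Rises shared a different word, TCGGAGA, which the same earlier analysis had listed. It stands in the 3′ UTR of 3 of the 15 named rises (20%), TPM4, CYP1B1 and G3BP2, beside 1.75% of all transcripts searched. None of the 13 named falls searched holds it, which at so low a share says little. Windows of 21 bases are shown for those 3 and for 3 more transcripts that rose and hold it, BICD2, MED11 and NOLC1, with the word in capitals. Its places are chr19:16101493-16101499 (plus) in TPM4, chr2:38070674-38070680 (minus) in CYP1B1, chr4:75644104-75644110 (minus) in G3BP2, chr9:92712934-92712940 (minus) in BICD2, chr17:4733534-4733540 (plus) in MED11 and chr10:102162304-102162310 (plus) in NOLC1, all on GRCh38.
TPM4: ttttgtaTCGGAGAagctttg
CYP1B1: cacatctTCGGAGAtgaggag
G3BP2: gcaatttTCGGAGAaaagaac
BICD2: tttagacTCGGAGAtgagtgc
MED11: tcttcatTCGGAGAgacaaaa
NOLC1: gtgatgaTCGGAGActactta
BICD2, an adaptor of the dynein motor, was at 4.75 RPKM in the control library and 8.70 in the ODC1 siRNA library (0.76). MED11, a Mediator subunit, was at 10.9 and 18.99 RPKM (0.75), and NOLC1, a nucleolar phosphoprotein, at 85.4 and 132 RPKM (0.62).

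Over all 10512 transcripts with a searched 3′ UTR, 108 rose (1.03%) and 34 fell (0.323%). Of the 184 that hold TCGGAGA, 17 rose (9.24%) and none fell, and their median change was 0.13 beside 0.02 without it. Of the 1035 that hold ATATCAT, 9 fell (0.870%) and 5 rose, and their median was -0.03 beside 0.03 without it. Read from the other side, TCGGAGA stands in 17 of the 108 that rose (15.7%) and in 1.75% of all searched, and ATATCAT in 9 of the 34 that fell (26.5%) and in 9.85% of all. An 8-base word gave steeper values: 10.5% of the 57 3′ UTRs with TCGGAGAA rose, and 2.24% of the 268 with ATATCATA fell. With 6 bases the shares were smaller, 3.86% of 777 for CGGAGA and 0.509% of 2749 for TATCAT. Of those with TATCAT 14 fell and 18 rose (0.655%, beside 1.03% of all searched).

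Transcripts with a word have longer 3′ UTRs (median 2554.5 bases with TCGGAGA and 1016.5 without, 2913 with ATATCAT and 917 without), so the medians were taken within classes of length. For TCGGAGA they were 0.16 against 0.01 under 1000 bases, 0.19 against 0.03 from 1000 to 3000 bases, and 0.08 against 0.02 above. For ATATCAT they were -0.08 against 0.01, -0.04 against 0.04, and -0.02 against 0.04. The order was the same in all 3 classes for both words. Both words came from an earlier analysis of these same libraries, so these values describe them and are no independent check. ODC1, AMD1, KLF2 and NTN4 hold neither word in their 3′ UTR, and neither do 88 of the 108 that rose and 25 of the 34 that fell. A match of letters is not a site: the part that matches to either siRNA play in these changes was not tested.

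**Figure D4:**
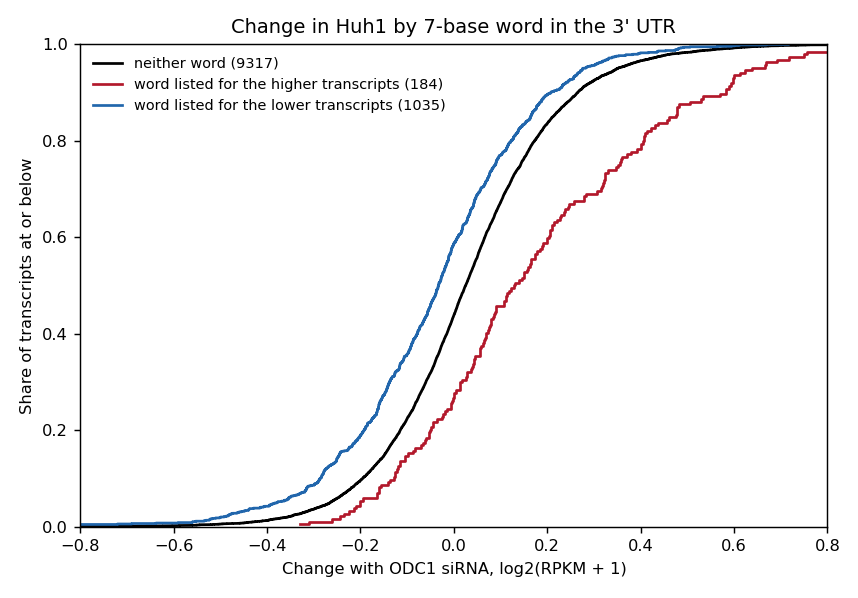
Share of transcripts (y) at or below a given change on log2(RPKM + 1) (x), for 3′ UTRs with the word of the higher transcripts (184, red), with the word of the lower transcripts (1035, blue) and with neither (9317, black). The red curve lies to the right of the black one and the blue curve to its left, with medians of 0.13 and -0.03.

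The metallothioneins, small cysteine-rich proteins that bind zinc and copper, held the highest median of any list with at least 5 members past the filter. Of 13 listed genes of this group, which includes the zinc-sensing factor MTF1 and the zinc exporter SLC30A1, 5 passed the filter. Of these 3 rose and none fell, beside 1.01% and 0.367% of all transcripts. The median of 0.70 leaves out the genes under the filter, 5 of them at 0 in both libraries. With those genes counted it lies far nearer to no change. MT2A went from 5.35 to 10.4 RPKM (0.85, on 60 and 98 reads), MT1X from 3.50 to 6.47 RPKM (0.73) and MT1E from 5.02 to 8.80 RPKM (0.70). The 3 that rose are near copies of one another, so reads may be divided among them, and their intervals were wide (ratios of 1.40 to 2.73, 1.05 to 3.41 and 1.11 to 2.80). MTF1 was at 8.30 and 9.37 RPKM (0.16) and SLC30A1, itself a target of MTF1, at 19.99 and 17.96 RPKM (-0.15). MT1A, MT1F and MT1G stayed under 1 RPKM, and MT1B, MT1H, MT1M, MT3 and MT4 were at 0 in both libraries.

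MTF1 binds metal response elements, and the promoters of MT2A and MT1X are shown with the letters of that element in capitals; MT1E, which also rose, has no sequence shown here. The search used TGCGCNC and TGCACNC on both strands over 250 bases before to 50 after the start, in RefSeq promoters of GRCh38.p14. MT2A, at chr16:56608334-56608633 on the plus strand, has 8 matches, and MT1X, at chr16:56682220-56682519 on the plus strand, has 4.
MT2A: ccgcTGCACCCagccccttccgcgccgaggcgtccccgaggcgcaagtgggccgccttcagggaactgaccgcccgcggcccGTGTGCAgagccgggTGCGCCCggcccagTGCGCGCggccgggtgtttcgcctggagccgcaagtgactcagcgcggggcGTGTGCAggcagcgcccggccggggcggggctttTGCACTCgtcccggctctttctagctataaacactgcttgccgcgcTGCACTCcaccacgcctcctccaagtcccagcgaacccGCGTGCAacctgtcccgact
MT1X: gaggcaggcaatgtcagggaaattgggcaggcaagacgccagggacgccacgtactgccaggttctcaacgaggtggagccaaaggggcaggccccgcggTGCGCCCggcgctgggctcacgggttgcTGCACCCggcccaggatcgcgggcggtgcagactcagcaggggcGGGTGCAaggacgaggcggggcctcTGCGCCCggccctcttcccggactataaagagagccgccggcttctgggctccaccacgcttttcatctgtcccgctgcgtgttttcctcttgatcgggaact
Of 35116 promoters of the same length, 29.6% have at least 1 match, 0.601% at least 4 and 0.0740% at least 6. A match describes letters, not binding.

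Genes of cholesterol synthesis lay a little below the other transcripts. Of the 22 genes 1 fell, none rose, and 21 lay below the median of all transcripts; the list's median was -0.23 beside 0.02. HSD17B7, a reductase late in the pathway, was at 8.54 RPKM in the control library and 5.35 in the ODC1 siRNA library (-0.59, ratio 0.460 to 0.835). The sterol methyl oxidase MSMO1 was at 63.9 and 47.9 RPKM (-0.41), isopentenyl diphosphate isomerase (IDI1) at 80.1 and 60.8 RPKM (-0.39) and squalene epoxidase (SQLE) at 45.2 and 35.3 RPKM (-0.35). The last 3 did not reach 1.5-fold, though their intervals exclude no change. The summed level of the list was 1203 and 1059 RPKM. In the list of sterol regulation and transport 1 of 19 rose, SOAT2, which esterifies cholesterol, from 1.41 to 2.66 RPKM (0.61, and 0.55 under quantile normalization, short of the rule). The median of that list was 0.07.

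In fatty acid and triglyceride synthesis, none of 23 genes passed 1.5-fold and the median was -0.19. The acyl-CoA synthetase ACSL4 was at 144 and 110 RPKM (-0.39), the desaturase FADS1 at 105 and 80.8 RPKM (-0.38), and malic enzyme (ME1) stood on the other side at 101 and 131 RPKM (0.37). Oxidation and ketone body genes lay a little above the median of all, with 0.10 over 26 genes and none past 1.5-fold. The carnitine carrier SLC25A20 was at 24.8 and 36.7 RPKM (0.55).

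KLF2 is known to repress PPARG in fat cell precursors, and it was described with the PPAR factors and their targets. Of the 21 genes of that list KLF2 and PDK4 rose and none fell, beside 1.01% and 0.367% of all transcripts. The list's median was 0.22. PDK4, a kinase that shuts off pyruvate dehydrogenase, went from 3.41 to 5.95 RPKM (0.66, ratio 1.43 to 2.15). The lipid droplet protein CIDEC was at 14.5 and 21.8 RPKM (0.56), while lipoprotein lipase (LPL) was at 1.04 and 0.380 RPKM (-0.56). PPARG, the adipogenic nuclear receptor, was at 19.4 and 22.8 RPKM, a change of 0.22 inside the rule (ratio 1.03 to 1.34). The RPKM ratio was 2.28 for KLF2 and 1.17 for PPARG, and the counting intervals of the 2 ratios do not overlap.

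Of the 12 Krüppel-like factors with at least 1 RPKM, 2 rose and none fell, beside 1.01% and 0.367% of all transcripts. Their median was 0.11. KLF6 joined KLF2, from 9.58 to 15.9 RPKM (0.67, ratio 1.48 to 1.84). KLF7 was at 5.70 and 8.06 RPKM (0.44), KLF4 at 7.23 and 9.44 RPKM (0.34) and the weakly expressed KLF12 had a change of 0.20. KLF10 (17.1 and 19.04 RPKM), KLF16 (11.96 and 12.6), KLF13 (19.3 and 20.2), KLF3 (13.5 and 13.9), KLF5 (23.1 and 22.02), KLF11 (3.97 and 3.58) and KLF15 (2.43 and 2.10) changed by between -0.14 and 0.15. KLF1, KLF8, KLF9, KLF14 and KLF17 stayed under 1 RPKM in both libraries.

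Of the 11 aryl hydrocarbon receptor genes described, CYP1B1 alone passed the rule, and the median was 0.09. CYP1A1, the classical target of the receptor, was at 31.4 and 47.3 RPKM, a change of 0.58 that falls just short of 1.5-fold (ratio 1.39 to 1.63). The receptor (AHR) was at 27.1 and 30.1 RPKM (0.15) and its partner ARNT at 13.1 and 13.8 RPKM (0.07). Other targets lay close to no change: TIPARP at 14.2 and 16.0 RPKM (0.16), NQO1 at 773 and 820.5 RPKM (0.09), ALDH3A1 at 87.8 and 91.8 RPKM (0.06) and UGT1A6 at 198 and 175 RPKM (-0.18). AHRR, the repressor, was at 0.774 and 1.05 RPKM (0.21) and NFE2L2 at 129 and 111 RPKM (-0.21). CYP1B1, but not CYP1A1, holds TCGGAGA in its 3′ UTR.

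TPM4 stood apart among the 4 tropomyosins. TPM1 was at 47.0 RPKM in the control library and 62.5 in the ODC1 siRNA library (0.40), TPM3 at 22.8 and 24.9 RPKM (0.12) and TPM2 at 6.53 RPKM in both libraries. Of the 29 tropomyosin and actin cytoskeleton genes TPM4 was the one that rose, 21 lay above the median of all, and the list's median was 0.09. Of 20 YAP and TEAD factors and targets 2 rose, beside 1.01% of all transcripts, and the list's median was 0.08. AXL, a receptor kinase, went from 3.43 to 5.87 RPKM (0.63), and CYR61, a matricellular protein, from 8.83 to 13.8 RPKM (0.59). Under quantile normalization neither passes the rule, at 0.58 for AXL and 0.55 for CYR61. NT5E, at 7.29 and 11.3 RPKM (0.57), lay just inside the threshold.

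**Figure D5:**
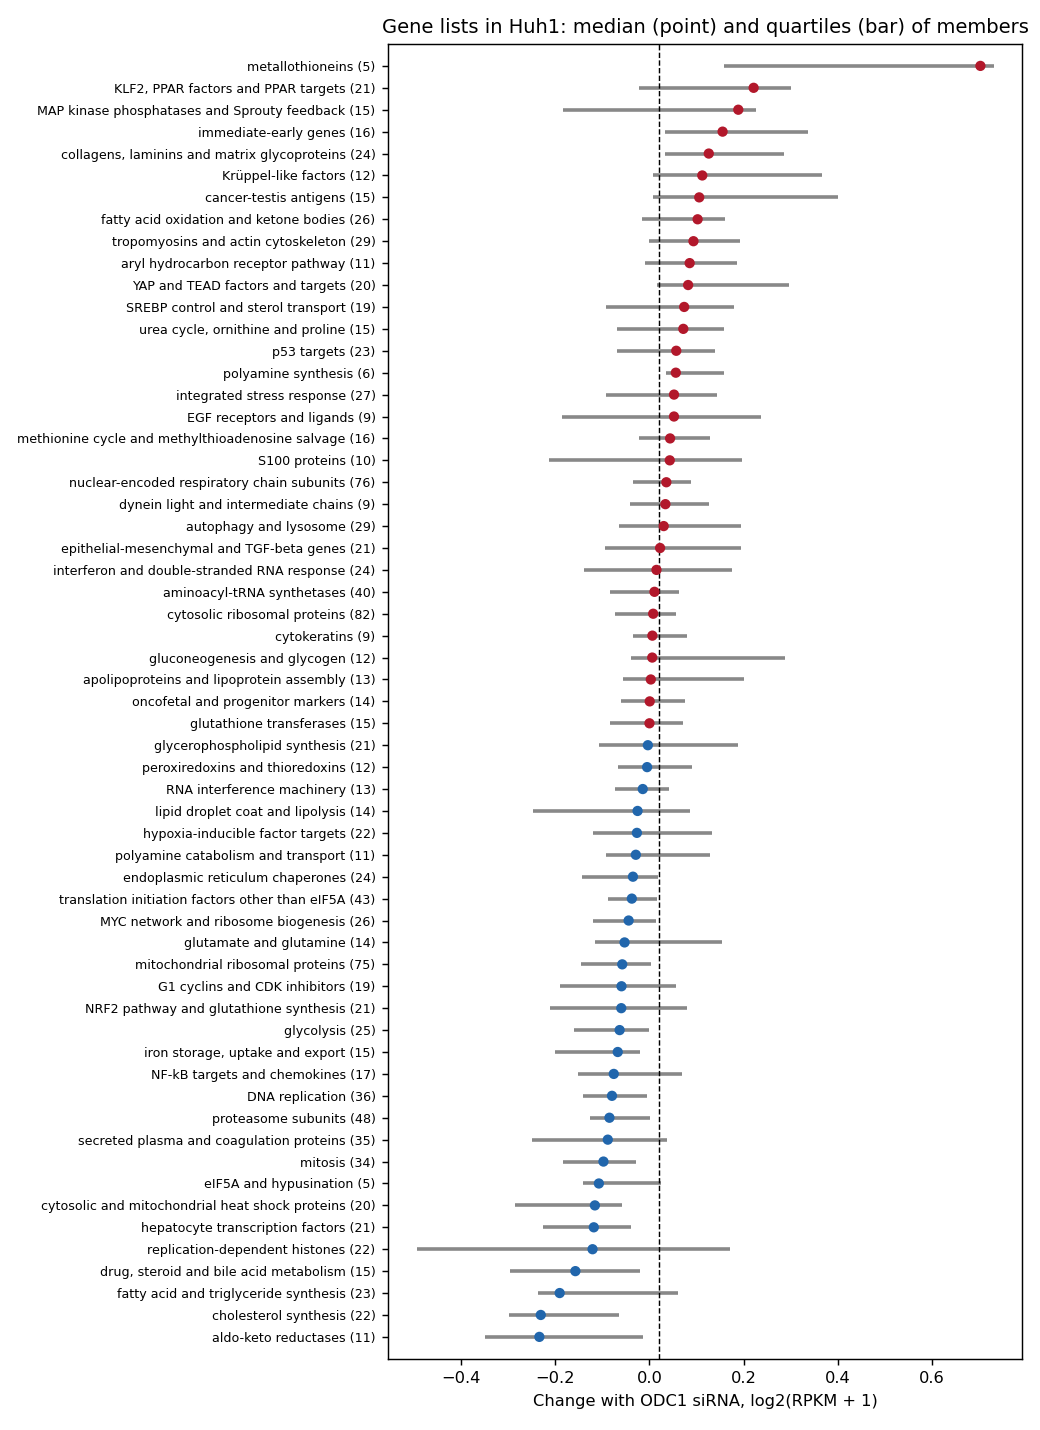
Median change on log2(RPKM + 1) (point; red above 0, blue below) and quartiles (bar) of the described members of each gene list with at least 5 of them, their number in parentheses; the dashed line is the median of all transcripts, 0.02. Metallothioneins lie highest at 0.70, and cholesterol synthesis and the aldo-keto reductases lowest at -0.23.

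Lists of detoxifying enzymes differed in their medians. Of 11 aldo-keto reductases, AKR1B15 fell and none rose, with a median of -0.23. AKR1C1, which reduces steroids and carbonyls, was at 4497 RPKM in the control library and 3275 in the ODC1 siRNA library (-0.46), AKR1B10 at 5758 and 4489 RPKM (-0.36), and AKR7A2 stood on the other side at 11.2 and 16.2 RPKM (0.49). In drug, steroid and bile acid metabolism the median of 15 genes was -0.16. The glucuronosyltransferase UGT2B4 was at 492 and 362 RPKM (-0.44), whereas CYP3A5 rose from 9.50 to 15.1 RPKM (0.62). The 15 glutathione transferases had a median of 0.00 and none past the rule. In the NRF2 and glutathione list none of 21 passed 1.5-fold (median -0.06); SRXN1 was at 287 and 221 RPKM (-0.38) and GCLM at 330 and 257 RPKM (-0.36).

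The cell cycle lists lay slightly low, with 1 member past the rule. Of 34 mitosis genes 29 lay below the median of all, with a list median of -0.10 and none past 1.5-fold. KIF20A, a mitotic kinesin, was at 28.7 and 23.5 RPKM (-0.28), and Aurora kinase A (AURKA) at 59.9 and 49.8 RPKM (-0.26). Of 36 DNA replication genes 29 lay below, with a median of -0.08; the flap endonuclease FEN1 was at 70.8 and 57.7 RPKM (-0.29). CDKN1A was the one of 19 G1 cyclins and kinase inhibitors to fall. Cyclin D1 (CCND1) was at 37.9 and 30.7 RPKM (-0.30), and cyclin E1 (CCNE1) at 4.80 and 3.17 RPKM (-0.47). Among 23 p53 targets CDKN1A was again the one past the rule and it fell, while BBC3 (0.934 and 1.74 RPKM, 0.50) and BTG2 (3.94 and 5.96 RPKM, 0.49) were higher in value; the median was 0.06.

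Lists of the translation machinery were nearly flat. The 82 cytosolic ribosomal proteins had a median of 0.01, the 43 initiation factors other than eIF5A -0.04, the 40 aminoacyl-tRNA synthetases 0.01, and none had a member past 1.5-fold. Mitochondrial ribosomal proteins (75, median -0.06) and proteasome subunits (48, median -0.08) had 59 and 40 members below the median of all. NOLC1 was the one of 26 genes of the MYC network and ribosome biogenesis to rise. PPP1R15A (GADD34), which restores translation after stress, rose from 16.6 to 26.4 RPKM (0.64) and was the one of 27 integrated stress response genes to do so.

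Lists for interferon and double-stranded RNA, RNA interference, immediate-early genes and heat shock had no member past the rule. Of 17 NF-kB targets and chemokines 1 fell, CCL20 (-0.75), and PPP1R15A rose in the integrated stress response list. Beside 1.01% of all transcripts that rose and 0.367% that fell, 1 member or none past the rule does not set these lists apart. Of 24 interferon and double-stranded RNA response genes none passed, with a median of 0.02; IFIT1 was at 0.723 and 1.53 RPKM (0.56) and ISG15 at 12.003 and 17.4 RPKM (0.50). The 13 genes of the RNA interference machinery had a median of -0.01. Among immediate-early genes the median of 16 was 0.16, with IER2 at 5.68 and 8.67 RPKM (0.53) and JUN at 15.5 and 21.8 RPKM (0.47). The 20 heat shock genes had a median of -0.12, with HSPA1A at 87.2 and 70.8 RPKM (-0.30), a gene whose reads may be divided with its near copy HSPA1B. These comparisons set 2 transfected libraries side by side, so any response common to both siRNAs is not in them.

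Few of the liver function genes in the lists described here passed the rule. Outside these lists other liver genes did, among them ADH4 (-0.59) and CFHR3 (-0.60), which fell, and C8G (0.63), which rose. None of 21 hepatocyte transcription factors passed 1.5-fold (median -0.12, 17 below the median of all); FOXA3 was at 10.3 and 7.30 RPKM (-0.45). Of 35 secreted plasma and coagulation proteins coagulation factor X (F10) fell, from 3.50 to 1.86 RPKM (-0.66), and the median was -0.09. In glycolysis none of 25 passed (median -0.06), hexokinase 1 (HK1) being at 32.4 and 22.4 RPKM (-0.51) and lactate dehydrogenase A (LDHA) at 547 and 417 RPKM (-0.39). Over the 59 pathway lists with at least 5 described members, 28 medians were below 0 and 8 lay more than 0.15 from 0.

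In Huh7 the same 2 siRNA labels hold, and its libraries played no part in choosing the Huh1 transcripts. ODC1 was at 167 RPKM in the control library and 7.50 in the ODC1 siRNA library there, a change of -4.30. Of the 15 named Huh1 rises 14 had a change above 0 in Huh7, beside 49.4% of all transcripts. At least 1.5-fold higher there were 10 of the 15 and 45 of the 110 that rose (40.9%), beside 2.24% of all transcripts. AMD1 was at 73.8 and 180 RPKM in Huh7 (1.27). Of the 14 named falls other than ODC1, 10 had a change below 0 in Huh7 and 7 were at least 1.5-fold lower; 13 of the 39 that fell besides ODC1 (33.3%) were, beside 2.51% of all. CDKN1A, lower in Huh1, was at 3.66 and 3.45 RPKM in Huh7 (-0.07). The difference between lines was not tested, since each has 1 library a side.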

How the data were processed

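RNA from 1 control siRNA and 1 ODC1 siRNA library of Huh1 was described, with 2 Huh7 libraries beside it, and samples were grouped by their cell line and siRNA labels. Libraries were made from total RNA with the TruSeq kit, per the labels' protocols. Per the submitters' processing notes, the tools were TopHat2 2.0.9 and CASAVA 1.8.2 and the build was hg19. The program that counted reads was not given in the sources used here, nor its annotation or strand setting, and overlapping or antisense genes may share reads. The values the authors deposited, 1 per RefSeq transcript in files with no header, were taken as RPKM, as the description of the files has it. Low values of a transcript stand in whole-number steps between libraries, which gave the relative depth, and reads per transcript came out whole (tolerance 0.01 reads) for 3610 of 10912 transcripts (33.1%); for 6968 a GENCODE 29 length was used, and 334 have no interval.

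Changes are log2(RPKM + 1) differences over transcripts with at least 1 RPKM in either library, and with 1 library a group no test was run. The 1.5-fold rule was tried on simulated counts, with large changes planted in transcripts of at least 5 RPKM and counting noise alone. The 2-fold rule and changes near a threshold were not tried. Named are ODC1, KLF2, PPARG, the 15 largest rises and falls that reach 5 RPKM in one of the libraries, all polyamine and eIF5A genes, all members of 4 families, and up to 4 members of each other list with the largest changes; LDHA, markers, transcripts at a threshold or shown with a 3′ UTR word and the groups under other observations were named after their values were seen. The 61 pathway and 6 marker lists, the named genes and the 2 UTR words were chosen with earlier results of these data known. A few genes that the naming rule takes in are not reported here. Alternatives were a pseudocount of 0.1, no filter or 5 RPKM, upper quartile scaling, quantile normalization, a median change set to 0, and calls whose interval excludes no change. Python 3.11.15, pandas 2.3.3, numpy 2.4.6, scipy 1.17.1 and matplotlib 3.10.9 were used. GENCODE and RefSeq coordinates are GRCh38, not the build of the deposited values.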

Additional observations from a re-analysis of the deposited data

Results flagged for a closer look

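CBR3, a carbonyl reductase, had a change of -0.76 in Huh1 (8.13 to 4.41 RPKM) and of 0.25 in Huh7 (1.25 to 1.67 RPKM), opposite in sign. No counting interval was taken for Huh7, where CBR3 lay near the filter of 1 RPKM, so counting error may cover its change there. CCL20, a chemokine, had a change of -0.75 in Huh1 (22.1 to 12.7 RPKM) and of 0.18 in Huh7 (115 to 131 RPKM). Neither difference between lines was tested, since each line has 1 library a side.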

How the results depend on the processing

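With a pseudocount of 0.1 in place of 1, 257 transcripts were at least 1.5-fold higher and 122 lower, and 25 and 20 passed 2-fold, beside 110, 40, 6 and 3. A filter of 5 RPKM left 25 at least 1.5-fold lower, and 25 were also lower among searched 3′ UTRs holding neither word, an alternative added after the data were seen. These settings move transcripts of low level across the line or leave fewer transcripts to count. Quantile normalization gave 76 higher and 52 lower, and a median change set to 0 gave 87 and 43, which moves the split between higher and lower. The interval excluded no change for 103 of the 110 and 34 of the 40. ODC1 stayed between -2.04 and -2.00 under the 6 settings, and the 15 largest rises, the 15 largest falls and EIF5A2 stayed past the rule with the same sign. Of all 110 that rose, 34 lost the call under quantile normalization, among them CYR61 (0.55), AXL (0.58) and SOAT2 (0.55), and 23 did with a median change set to 0, among them CYR61 (0.57) and IGFBP4 (0.57). The 5 RPKM filter leaves out 33 of the 110 and 15 of the 40, among them SOAT2, F10 and HIST1H2BN. List medians kept their sign in 52 to 61 lists. The largest downward shift of a list median was -0.606, with no filter on low values. Without that filter the metallothionein median, 0.70 with it, lay far nearer to no change. Depth limits the precision of transcripts under 5 RPKM, which had a median of 107 control reads. No paired analysis was possible because each group has 1 library.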

Other observations

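Genes named as zinc fingers (symbols beginning with ZNF, ZSCAN or ZFP), a large family of DNA-binding proteins, lay higher with ODC1 siRNA in Huh1. The group was picked after its values were seen and is a description. Of 396 such transcripts described, 325 (82.1%) had a change above 0, beside 55.1% of all transcripts, and the median was 0.17 beside 0.02 for the others. Of these, 16 rose (4.04%) and none fell, beside 1.01% and 0.367% of all transcripts. ZNF616 (1.84 to 5.44 RPKM, 1.18), ZNF211 (1.99 to 4.86 RPKM, 0.97), ZNF257 (2.91 to 5.62 RPKM, 0.76) and ZNF845 (2.68 to 4.98 RPKM, 0.70) had the largest changes. These genes are weakly expressed, with a median of 3.29 RPKM in the control library. At the same levels, from 2.09 to 6.69 RPKM, 198 zinc-finger transcripts had a median of 0.20 and 2257 others one of 0.04. In Huh7 the median was 0.18, and 286 of the 396 had a change above 0, beside a median of 0 and 49.4% of all transcripts.

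Of 7 insulin-like growth factor binding proteins listed, a group also picked after its values were seen, 5 passed the filter. Of these 2 rose and 1 fell, beside 1.01% and 0.367% of all transcripts. IGFBP1, a secreted protein of hepatocytes, fell from 6.43 to 3.51 RPKM (-0.72). IGFBP3 rose from 20.1 to 32.8 RPKM (0.68) and IGFBP4 from 28.6 to 43.5 RPKM (0.59). IGFBP2 was at 6.48 and 6.98 RPKM (0.09) and IGFBP6 at 29.003 and 33.01 RPKM (0.18).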
